A study of Mus musculus with 3 samples.

Results

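Antisense RNAs are transcribed from the strand opposite to another gene, and divergent RNAs start close to the start of a coding gene and run the other way. Some stay at their site of synthesis in the nucleus and act on the neighbouring gene, some are exported to the cytoplasm, and for many no function is known. In macrophages, RNAs of both kinds lie beside genes for transcription factors, actin regulators and immune receptors.

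The RNAs described here are the genes whose annotated transcripts include an antisense or a bidirectional promoter noncoding class, with no protein-coding or lincRNA transcript. Their members were chosen by measured level: a TPM (a transcript level scaled by length and by library) of at least 1 in at least 1 library. Kcnq1ot1, Airn, Tsix, Gas5, Zfas1 and the Snhg genes were left out by rule. Of 3261 annotated genes of this kind, 97 qualified, which is 2.97%, beside 18.4% of all 55536 genes, 1.75% of 6053 lincRNA genes and 43.1% of 21901 protein-coding genes. Of the members, 83 were of the antisense and 14 of the divergent class, spread over 20 chromosomes.

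The 3 libraries form 1 group: total RNA, depleted of ribosomal RNA and sequenced, from the cytosol of primary macrophages grown from C57BL/6J bone marrow. Cells were sampled at 0 minutes of a course with 100 ng/ml lipid A, the TLR4-activating core of bacterial endotoxin. All carry one donor label, age and sex were not collected, and nothing separates cultures from animals, so each SD measures the spread of these 3 libraries and may be technical. With 1 group there was no contrast, and no test was possible.

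Counts assigned to genes came to 26318761, 41897257 and 56290298 in replicates 1, 2 and 3. All 8 macrophage marker genes were detected, while the T cell, B cell, erythroid and fibroblast lists had 0 of 3 genes each at a TPM of 1, and the neutrophil list had 1 of 3 (Ngp, 1.92, 1.29 and 2.29 TPM). The nuclear RNAs Malat1 and Neat1 stood apart in replicate 3, with 1008.18 TPM against 223.75 and 206.53 TPM in replicates 1 and 2 for Malat1. For Neat1 the values were 92.54 TPM in replicate 3 against 18.65 and 16.7 TPM. In bulk RNA, fewer cells of a type and less RNA per cell cannot be told apart.

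The members were rare RNAs. Together they held 0.0621%, 0.0589% and 0.0687% of gene counts in replicates 1, 2 and 3. Their median mean level was 1.57 TPM, beside 2.17 TPM for the 106 lincRNAs and 6.77 TPM for the 9448 protein-coding genes past the same threshold. Only 8 members averaged at least 10 TPM and 16 at least 5 TPM. A TPM of 1 was reached by 58 members in all 3 libraries, by 17 in 2 and by 22 in 1. Of those 22, the single library was replicate 3 for 13, replicate 1 for 5 and replicate 2 for 4. A member that entered through 1 high library had to differ between libraries. Without replicate 3, 84 genes qualified.

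At the threshold, the lowest members were the divergent RNA A130014A01Rik with a highest value of 1.00 TPM, 5430405H02Rik with 1.03 TPM and 4632427E13Rik with 1.05 TPM. The highest genes left outside were Cep83os with 0.98 TPM, Gm4285 with 0.95 TPM and Gm45449 with 0.95 TPM. In the 3 outside genes the libraries lay closer together than in the first and last of the 3 inside: Cep83os had 0.98, 0.84 and 0.87 TPM, and A130014A01Rik had 0.25, 0.30 and 1.00 TPM. Of all genes in the class, 1711 had 0 counts in every library, where a count of 0 allows up to 3 counts.

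By their position on mm10 (GENCODE M21 annotation), the members fell into 5 structures that were defined after the data were seen. In 17 members at least 90% of the exonic bases lay inside exons of a coding gene on the other strand; these are called nested here. Another 58 overlapped such exons in part. A further 10 overlapped a coding gene with no exonic base facing its exons, here called over introns only. They need not lie inside the partner: 1600010M07Rik spans all of Ipo7, and 3110056K07Rik runs past Psma3. Of the rest, 8 had a start within 1000 bases of a coding gene's start and did not overlap it, and 4 had neither. Nested genes made up 17.5% of members and 3.03% of the 3164 class genes below the threshold. Genes over introns only made up 10.3% of members and 34.0% of those below it. The median exonic length was 1153 bases in members and 968 bases in class genes below the threshold; 12 members had 1 exon and 39 had 2.

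The nested members carried the highest levels and are the ones whose reads are hardest to assign. At least 90% of their exonic bases are complementary to exons of an expressed mRNA. In the spliced members that lie wholly inside such exons, only the splice junction is a sequence that those exons do not have. Gm43118, with 1 exon, has no junction, and Gm37401 and Gm44709 have some exonic bases outside. No source used here states whether reads were counted by strand; the notes deposited with the libraries list signal tracks with no split by strand. Without strand, reads from a gene and its antisense partner cannot be told apart, and this limit touches every level of a nested member. It also touches the 58 partly overlapping members, over the exonic bases that face exons of a coding gene. These bases ran from 0.3% (Gm26982) to 87.3% (Gm17344), and 20 of the 58 had whole counts in all libraries. Of the 17 nested members, 15 had 1 transcript with 2 exons, and in 13 of these the annotated intron lay wholly inside 1 exon of the opposite gene. These introns were 60 to 1716 bases long; 11 had GT-AG ends and 2 had GC-AG ends, read on the strand of the noncoding RNA. For 16 of the 17, over 90% of exonic bases lay in the 3′ untranslated part of at least 1 annotated transcript of the partner.

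The junctions of 5 nested members that averaged over 8 TPM and whose intron lay inside 1 partner exon are shown because they are the only bases that would separate these RNAs from the genes opposite. Each line gives 30 bases from 5′ to 3′ from the GENCODE M21 transcript, the last 15 of exon 1 in lower case and the first 15 of exon 2 in capitals.
Gm26716 (opposite Sdc3): tgaactcaggacaggCTGTGCCAACTGCCT
Gm15655 (opposite Maf): tacgggggaattcagGCTCGGGAAGGTCCT
Gm20659 (opposite Dusp3): tataagcaacttaagAGTGCTGGAGCCCAG
Gm17122 (opposite Coro1c): ttacaacactacccaGTCGTCTGCTTCCAT
Gm20463 (opposite Rnf5): ggaagtaagggggtgGTGGGCAGGGAGGAG

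Gm26716 (chr4:130824394-130826313, minus strand, 415 exonic bases) was the highest member with 67.75, 69.15 and 72.57 TPM in replicates 1, 2 and 3, a mean of 69.82 ± 2.48 TPM (SD, n = 3). All of its exonic bases lay in the 3′ untranslated region of Sdc3, the heparan sulfate proteoglycan syndecan-3. In TPM the 3 libraries were close together, while its SD in log2 CPM (counts scaled to library size) was 0.23. Sdc3 itself stood higher in each library, at a mean of 127.0 ± 20.0 TPM.

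Gm15655 (chr8:115705078-115707233, plus strand) had 32.38, 52.07 and 64.90 TPM opposite Maf, the gene of a leucine zipper transcription factor of resident macrophages. Its 2 exons faced the 3′ and 5′ untranslated ends of Maf (91.1% and 8.86% of exonic bases), and its intron held the 1110 coding bases between them. Its libraries were spread widely while Maf was steady at 104.49, 97.66 and 94.06 TPM. In the kallisto-format quantification of the same libraries, described below, Gm15655 had 20.7, 28.5 and 24.6 TPM, with replicate 2 highest. Gm37401 (chr9:108337089-108338273) had 53.09, 45.61 and 45.54 TPM opposite the small GTPase gene Rhoa, which averaged 93.72 ± 12.4 TPM. Its first exon is 23 bases long, and its intron was not inside 1 Rhoa exon.

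Further nested members followed at lower levels. Gm20659, opposite the phosphatase gene Dusp3, had 16.54, 11.66 and 13.82 TPM. Gm44709, opposite the elongation factor gene Supt5, had 14.36, 8.25 and 7.88 TPM, and 45.5% of its exonic bases faced coding sequence. Gm17122, opposite the actin-binding coronin gene Coro1c, had 6.97, 12.91 and 6.65 TPM. In both, 1 library stood well above the other 2, replicate 1 for Gm44709 and replicate 2 for Gm17122. Gm20463, opposite the ubiquitin ligase gene Rnf5, averaged 8.10 ± 1.34 TPM. Gm11175 averaged 6.05 ± 1.55 TPM and lay entirely in the coding sequence of Jund, a subunit of the AP-1 transcription factor.

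**Figure D1:**
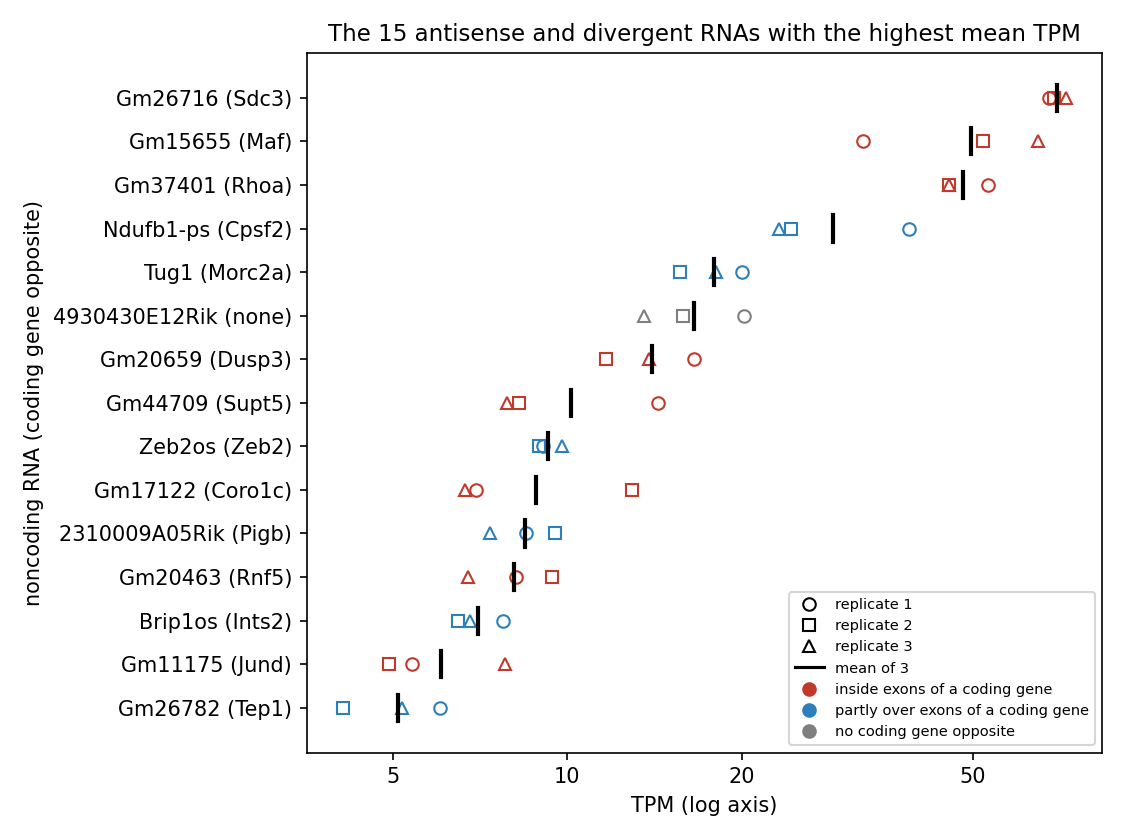
The 15 members with the highest mean TPM on a logarithmic TPM axis; symbols mark the 3 libraries, black bars the mean of 3, colours the structure, and the name in parentheses the coding gene on the other strand or "none". Of the 15, 8 lie inside exons of a coding gene, among them the 3 highest, Gm26716, Gm15655 and Gm37401.

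The same libraries were also quantified in kallisto-format tables, and here the nested members differed from the others. Their kallisto-format counts were a median of 2.08% of the expected counts in the RSEM-format tables, with a range of 0% to 120%. In the other structures the median was 126% for partly overlapping members, 153% for those over introns, 130% for head-to-head members and 122% for those with no partner. Among the 89 members with a mean of at least 20 counts, 11 fell under 25% of the RSEM-format counts (12.4%), beside 1.67% of all 12402 genes with such counts. All 11 were nested, out of 15 nested members at that depth.

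Gm26716 had expected counts of 595.64, 1177.33 and 1605.70 in replicates 1, 2 and 3, and kallisto-format counts of 0, 0 and 7.86. Gm20659 had 291.77, 382.94 and 590.74 expected counts and 0, 5.16 and 12.4 kallisto-format counts. Gm42846, opposite Mxd4, a MAX dimerisation protein gene, had 0 kallisto-format counts in every library against a mean of 80.9 expected counts. In each of these 3, nearly all counts of one table were missing from the other.

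Gm15655 went the other way, with 321.88, 994.10 and 1610.47 expected counts and 525.9, 1187 and 1800 kallisto-format counts. Gm37401 kept 54.9%, Gm20463 41.5% and Gm28959, opposite the hydrolase gene Abhd14b, 40.8% of the expected count. No nested member had whole expected counts in all libraries, against 40 of the 97 members overall (within 0.005 of a whole number); a fractional expected count arises where reads are divided between genes. Nested members supplied 232.2, 235.9 and 247.2 TPM of the members' summed 476.3, 427.0 and 458.0 TPM in replicates 1, 2 and 3. Without them the median level of members was 1.39 TPM.

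Outside the nested structure, the widest gaps ran upward, in Adap2os, Gm37787 and Gm11772. Their log2 ratios of kallisto-format to expected counts, each plus 1, were 3.14, 2.22 and 1.78. Adap2os, opposite the gene of the GTPase-activating protein ADAP2, had 45, 22 and 61 expected counts and 278.5, 291.7 and 579.8 kallisto-format counts. Gm37787, opposite the leukocyte receptor gene Slamf7, averaged 28.4 expected and 136 kallisto-format counts, and 4930430E12Rik, which had no partner, averaged 555 and 1696. D330041H03Rik, opposite the lipid transporter gene Abca3, had the lowest share outside the nested members, at 30.4%. Its log2 ratio of −1.70 was a wider gap than the 1.61 of 4930430E12Rik.

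**Figure D2:**
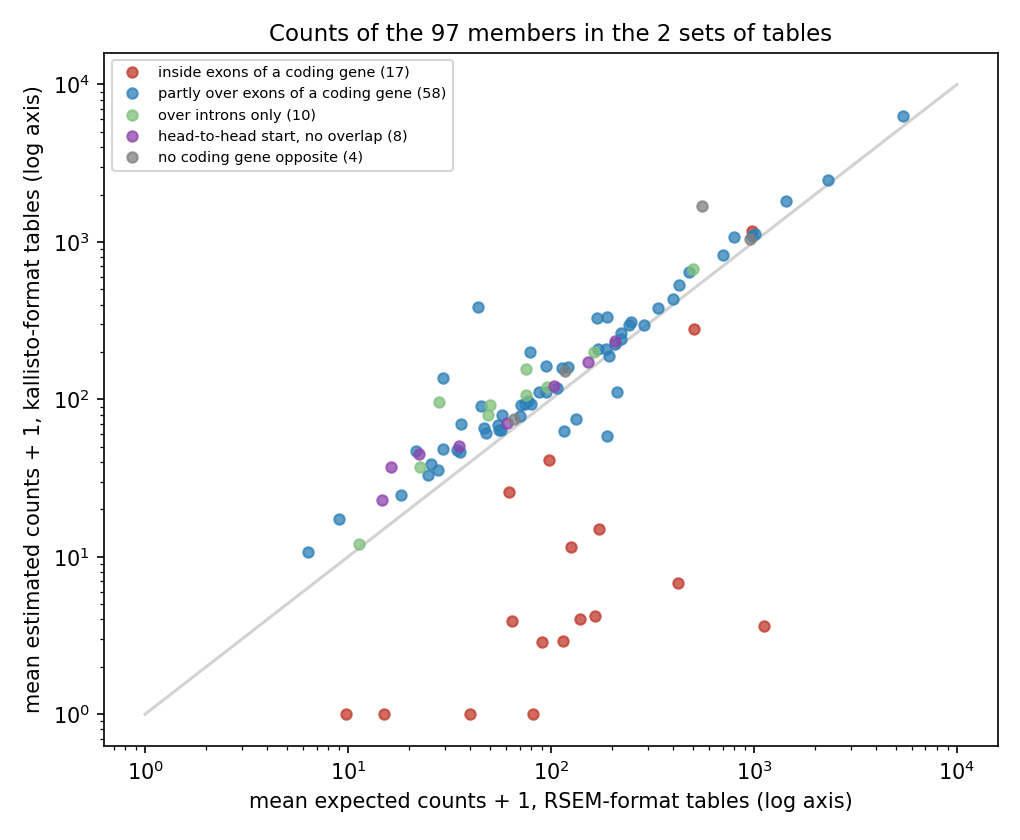
Mean counts over 3 libraries plus 1 of each member in the RSEM-format tables (x axis) and kallisto-format tables (y axis), both logarithmic, with a grey line of equality and colours for structure. Members outside the nested structure follow the line or lie above it with few exceptions, while 13 of the 17 nested members fall under 25% of their RSEM-format count.

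The 8 head-to-head members do not overlap their partner, so the limit on facing exons does not touch their annotated bases. All 8 had whole counts, which cannot show that partner reads from outside the partner's annotated bases were absent. The starts of these members lay 97 to 229 bases from the start of the coding gene. The sequence between the starts is shown for the 5 pairs that a RefSeq promoter window (GRCm38.p6) covered, because both RNAs start from it in opposite directions. It runs 5′ to 3′ on the strand of the noncoding RNA, so the partner starts at the left end of the capitals and the noncoding RNA at the right end; capitals mark the bases from start to start and lower case 25 bases on each side.
BC051226 and Daxx (chr17:33909292-33909439, minus strand): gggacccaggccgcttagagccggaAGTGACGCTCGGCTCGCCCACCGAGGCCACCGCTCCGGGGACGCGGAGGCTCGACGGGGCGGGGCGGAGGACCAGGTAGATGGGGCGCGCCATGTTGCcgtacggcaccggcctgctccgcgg
0610009L18Rik and Actg1 (chr11:120348517-120348703, plus strand): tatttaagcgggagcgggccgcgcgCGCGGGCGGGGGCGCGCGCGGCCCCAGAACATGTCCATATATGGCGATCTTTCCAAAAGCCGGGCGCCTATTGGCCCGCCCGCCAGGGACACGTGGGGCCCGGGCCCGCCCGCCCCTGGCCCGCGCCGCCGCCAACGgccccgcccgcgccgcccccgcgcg
2810013P06Rik and Ankrd11 (chr8:123042252-123042491, plus strand): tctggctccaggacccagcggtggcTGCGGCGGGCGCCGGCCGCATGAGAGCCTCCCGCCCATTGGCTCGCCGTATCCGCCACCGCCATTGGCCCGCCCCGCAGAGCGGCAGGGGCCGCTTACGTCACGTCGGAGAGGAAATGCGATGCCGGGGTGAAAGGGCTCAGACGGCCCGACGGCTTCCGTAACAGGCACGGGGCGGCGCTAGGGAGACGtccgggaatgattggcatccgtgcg
A130014A01Rik and Zdhhc7 (chr8:120101457-120101607, plus strand): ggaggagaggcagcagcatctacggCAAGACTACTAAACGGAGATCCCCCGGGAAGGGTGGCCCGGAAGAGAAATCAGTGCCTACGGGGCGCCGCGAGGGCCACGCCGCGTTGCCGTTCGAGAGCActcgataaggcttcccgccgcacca
4632427E13Rik and Rab30 (chr7:92741443-92741628, minus strand): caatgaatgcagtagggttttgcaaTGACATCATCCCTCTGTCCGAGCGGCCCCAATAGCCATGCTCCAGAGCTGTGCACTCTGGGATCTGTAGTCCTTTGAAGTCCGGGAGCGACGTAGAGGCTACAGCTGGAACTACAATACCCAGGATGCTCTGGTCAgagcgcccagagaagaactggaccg

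Of these 5 stretches, 4 were dense in CG pairs, with observed over expected CpG of 1.03 (Daxx), 1.05 (Actg1), 1.10 (Ankrd11) and 1.12 (Zdhhc7), while the Rab30 stretch had 0.47. GC content ran between 55.9% (Rab30) and 76.6% (Actg1). None held TATAAA on either strand. GGGCGG occurred 2, 4 and 3 times in the Daxx, Actg1 and Ankrd11 stretches, CCAAT 1, 2 and 1 times in the Actg1, Ankrd11 and Rab30 stretches, and CACGTG once, in that of Actg1.

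Over whole promoter windows (250 bases before to 50 after a start), 40 members matched 50 windows in RefSeq. The letters TATAAA stood in 2.0% of the members' windows, on either strand, against 6.8% of 103 windows of their partners and 13.6% of all 32851 windows. GGAAGT stood in 40.0%, 23.3% and 23.8% of the same 3 sets, CACGTG in 18.0%, 11.7% and 7.15%, and GGGCGG in 44.0%, 57.3% and 35.7%. CCAAT stood in 25 of the members' 50 windows, in 43.7% of the partners' and in 37.4% of all. The median observed over expected CpG was 0.63, 0.71 and 0.38, and it was 0.94 in the 10 windows of divergent members and 0.62 in the 40 windows of antisense members. Windows of one gene overlap one another and some are shared with the partner, so these shares are descriptions of letters and not of bound sites.

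Levels of the head-to-head members were low beside their partners. 2310010J17Rik had 3.02, 1.76 and 2.56 TPM beside Picalm, a clathrin adaptor gene at 63.55 ± 8.41 TPM. BC051226 had 2.65, 1.56 and 1.29 TPM beside Daxx, a histone chaperone gene at 11.6 ± 2.56 TPM. 0610009L18Rik had 1.25, 0.94 and 1.08 TPM beside Actg1, the gamma actin gene, at 484.6 ± 48.2 TPM; this was the widest gap of any pair, −8.67 ± 0.05 on the log2 scale (TPM + 0.1). 2810013P06Rik had 1.11, 0.83 and 1.04 TPM beside the chromatin regulator gene Ankrd11 at 8.29 ± 0.51 TPM. The remaining pairs were AC132253.4 with Incenp, AC125110.1 with Rbm27, A130014A01Rik with Zdhhc7 and 4632427E13Rik with Rab30. In 7 of the 8 pairs the noncoding RNA lay below its partner in all 3 libraries; in the Rab30 pair it lay above a partner at 0.02 ± 0.01 TPM.

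Among RNAs that only partly overlap their partner, Ndufb1-ps was the highest with 38.83, 24.29 and 23.20 TPM. It is of the divergent class, carries the symbol of a pseudogene of a respiratory complex I subunit, and overlaps Cpsf2, a gene for pre-mRNA 3′ end processing, which averaged 7.18 ± 1.01 TPM. Replicate 1 stood well above the other 2 libraries. Its leading transcript took 53.1%, 50.7% and 49.8% of the gene's TPM.

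Tug1 (chr11:3639785-3649673), a conserved noncoding RNA found in both nucleus and cytoplasm, had 19.99, 15.64 and 18.03 TPM, and the chromatin ATPase gene Morc2a opposite it had 5.49 ± 0.42 TPM. It had the most counts of any member, 3632.26, 5042.37 and 7593.96 expected counts and 4105, 5718 and 8977 kallisto-format counts. With 8 transcripts, its leading one held only 28.1 ± 1.06% and was not the same one in every library.

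Zeb2os, antisense to the zinc finger transcription factor gene Zeb2, had 9.09, 8.92 and 9.81 TPM and an SD of 0.15 in log2 CPM, against 82.65, 66.91 and 69.24 TPM for Zeb2. Its leading transcript took 81.9 ± 3.11% in the RSEM-format tables, but the kallisto-format tables put another transcript first. Brip1os had 7.76, 6.49 and 6.79 TPM and overlapped most with the Integrator subunit gene Ints2, at 2.21 ± 0.44 TPM. It had the lowest spread of the members with at least 20 counts, an SD of 0.02 in log2 CPM. 2310009A05Rik, opposite the GPI anchor enzyme gene Pigb, averaged 8.45 ± 1.08 TPM, and Gm26782, opposite the telomerase-associated protein gene Tep1, averaged 5.11 ± 0.97 TPM.

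Other members carry the name of a gene. Rab10os averaged 5.08 ± 0.78 TPM opposite the vesicle transport GTPase gene Rab10 at 28.97 ± 3.24 TPM. Dnmt3aos averaged 2.01 ± 0.16 TPM opposite the DNA methyltransferase gene Dnmt3a, which had 88.1, 55.7 and 50.01 TPM. Zbtb11os1 stood at 2.07 ± 0.12 TPM, close to Zbtb11, a zinc finger gene, at 2.34 ± 0.16 TPM. Both members moved less between libraries than most, with SDs of 0.13 and 0.06 in log2 CPM.

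Sp3os had 4.44, 3.26 and 2.00 TPM; its longest overlap was with Gm11084, listed at 0 in every library. Trmt61b, which bears a tRNA methyltransferase's symbol but has no coding transcript in this annotation, averaged 2.17 ± 0.49 TPM against 0.03 ± 0.01 TPM for Spdya, a cell cycle regulator gene. Tnfsf13os averaged 1.82 ± 0.80 TPM against 10.86 ± 0.92 TPM for Tnfsfm13, a readthrough gene of TNF family ligands. Zfp652os had 1.73, 1.10 and 0.54 TPM and was the only member over 1 log2 unit lower in replicate 3 than the mean of replicates 1 and 2, at −1.12. That is 1.1% of members past the filter, beside 0.161% of all genes.

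The 10 members over introns only are the overlapping RNAs least exposed to reads of the mature partner mRNA, and 9 of them had whole counts in all libraries. If strand was not used, exons that lie in introns of the partner can still hold reads of the unspliced partner RNA. Whole counts cannot show that such reads were absent. The mean levels of the 10 ran from 0.72 to 2.20 TPM. 1810034E14Rik had 2.17, 1.71 and 2.13 TPM inside the cell cycle phosphatase gene Cdc14b, which averaged 2.85 ± 0.33 TPM. 1600010M07Rik, whose span holds the whole nuclear import receptor gene Ipo7, had 2.14, 1.51 and 1.29 TPM, against 13.89 ± 1.74 TPM for Ipo7. Gm19605 had 2.11, 1.24 and 1.36 TPM inside Ppp2r5c, a regulatory subunit gene of protein phosphatase PP2A, at 32.44 ± 4.86 TPM. In the last 2, replicate 1 was the highest library, and the RNA lay far below its partner in every library. Gm13012 was steadier, with 1.62, 1.55 and 1.36 TPM inside Ece1, the gene of an endothelin-converting enzyme.

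Other partly overlapping RNAs stood beside transport and lipid genes. Gm17251, of the divergent class, had 1.08, 0.88 and 1.03 TPM beside the recycling endosome GTPase gene Rab11b, at 29.57 ± 5.07 TPM. 6330562C20Rik, of the antisense class, had 2.32, 2.49 and 1.89 TPM beside the ceramide synthase gene Cers2, at 47.52 ± 6.32 TPM. The libraries of both RNAs lay close together, with SDs of 0.11 and 0.20 in log2 CPM. A pair of members lay in a histone gene cluster on chromosome 3: Gm20628, opposite Hist2h3b, had 1.25, 1.24 and 1.12 TPM, and Gm20632, opposite Hist2h2aa2, had 0.93, 1.02 and 1.19 TPM. Gm47428, opposite the ferritin light chain pseudogene symbol Ftl1-ps1, had 4.35, 3.09 and 2.82 TPM; near-identical copies of ferritin light chain can share reads, so the partner's 125.4 ± 21.5 TPM is uncertain.

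Some named members rested on few reads. Hotairm1, studied in myeloid differentiation of human cells, had 5, 5 and 14 expected counts, or 0.34, 0.68 and 1.26 TPM. Rab26os had 3, 3 and 25 counts. Neither passed edgeR's filter on low counts, which left out 6 of the 97 members.

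Across the 93 members with a partner, the partner was usually expressed and usually higher. It reached a TPM of 1 for 75 (80.6%), beside 46.2% of the 3017 partners of class genes below the threshold. Among nested members this held for 17 of 17, and among the others for 58 of 76 (76.3%). The member lay below its partner in all 3 libraries in 65 pairs, above it in 23, and on both sides in 5. In 18 of the 23 the partner was under 1 TPM in every library. The 5 with a detected partner were Ndufb1-ps, Tug1, 2310009A05Rik, Brip1os and A930005H10Rik, which lies opposite Dph5, a diphthamide synthesis gene. Partners were set by longest overlap, so a partner need not be the coding gene that starts nearest. The starts of Tug1 and Morc2a lay 482 bases apart. Those of the divergent RNA B230354K17Rik and its partner Spats1, which was under 1 TPM, lay 41817 bases apart.

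The median log2 ratio of member to partner (TPM + 0.1) was −2.37, with −2.31, −2.40 and −2.16 in replicates 1, 2 and 3. By structure it was −1.43 in nested, −2.52 in partly overlapping, −1.76 in intronic and −3.13 in head-to-head pairs. Wide gaps included 1110046J04Rik opposite Serpinb6a, a protease inhibitor gene at 231.7 ± 28.4 TPM, with a ratio of −7.27. Another was Gm45606, steady at 4.96, 4.55 and 4.66 TPM opposite the amino acid transporter gene Slc43a2 at 138.4 ± 7.38 TPM.

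**Figure D3:**
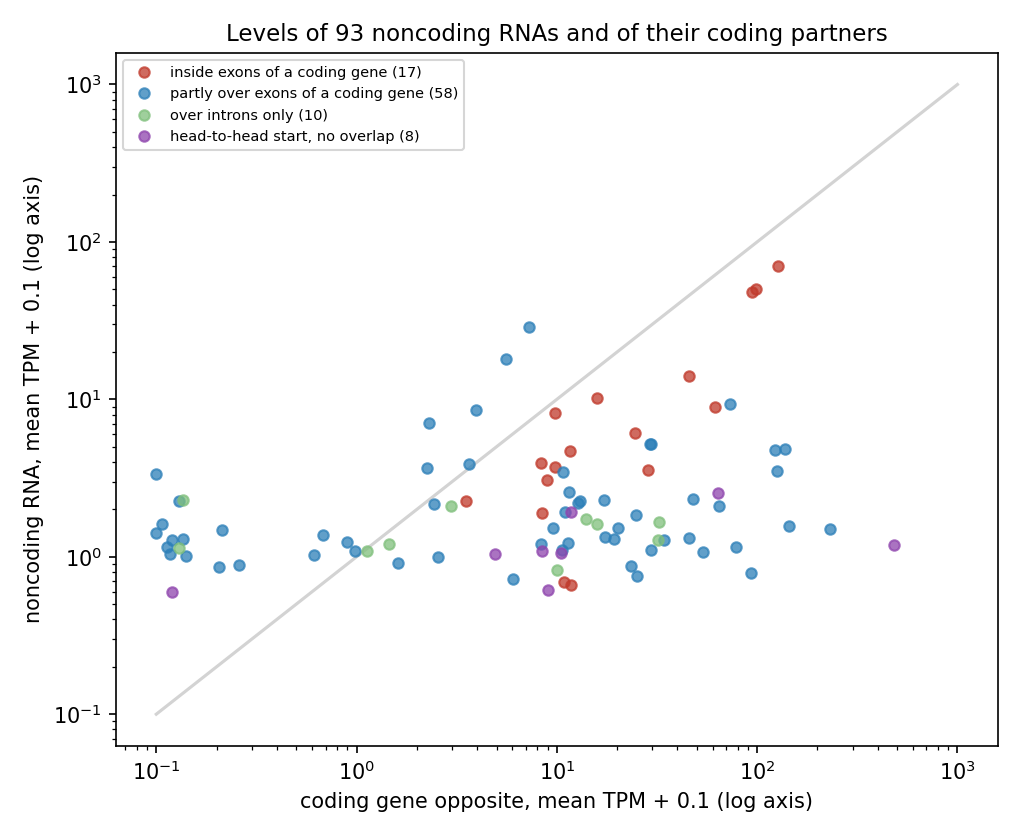
Mean TPM plus 0.1 of each of 93 members (y axis) against its coding partner (x axis), both logarithmic, with a grey line of equality and colours for structure. Most points lie under the line, the nested members among them, and most of those above it have a partner under 1 TPM.

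Of 56 genes listed for macrophage identity and the response to lipid A, 8 were partners of 9 class genes. Of these 9, 2 were members, beside 2.97% of all 3261 class genes, and 9 genes are too few to compare shares. One was Gm15655 opposite Maf, a nested member whose level is open to the limit on strand. The other was AC114539.1, of the divergent class, which overlapped Nfkb2, the gene of the NF-κB subunit p100, and had 4.30, 2.69 and 3.07 TPM against 12.75, 9.91 and 9.29 TPM for Nfkb2. The spread of AC114539.1 was small, with an SD of 0.04 in log2 CPM. The others in this low range were B230354K17Rik (0.04), Gm30329 (0.05) and 4930455G09Rik (0.05). Gm30329 had 2.35, 2.08 and 2.16 TPM opposite 1700011L22Rik, which was listed at 0, 0 and 0.11 TPM.

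Over the 91 members past the filter, the median SD of log2 CPM was 0.26, beside 0.12 for all 12413 genes, 0.23 for the 1778 genes in the members' middle range of level and 0.22 for detected lincRNAs. Replicate 3 gave the largest departures. In 12 members (13.2%) it was at least 1 log2 unit above the mean of replicates 1 and 2, beside 3.04% of all genes past the filter, 6.07% of genes in the same range of level, 0.883% of protein-coding genes and 17.7% of detected lincRNAs. It was the highest library for 44 members (48.4%), beside 36.1% of all genes. Of the 12, 9 reached a TPM of 1 in replicate 3 only, so the threshold itself favoured such genes. Among the 179 class genes below the threshold and past the filter, the share was 20.7%.

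4632427E13Rik showed the widest difference, with 524 counts (1.05 TPM) in replicate 3 against 46 and 49 counts (0.29 and 0.15 TPM) in replicates 1 and 2, a log2 difference of 2.72. Its kallisto-format counts were 595.2 in replicate 3 against 51.0 and 58.0. AC119228.1, opposite Cd274, the gene of the immune checkpoint ligand PD-L1, had 559.89 counts in replicate 3 against 90.36 and 72.72, a difference of 2.07. Over all annotated transcripts, these RNAs had 7303 and 4725 exonic bases. Among the 12, exonic bases ran from 567 (2900093K20Rik) to 9082 (A930037H05Rik).

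F630028O10Rik, on chromosome X with no partner, had 7.08 TPM in replicate 3 against 2.47 and 1.5 TPM, a difference of 1.97. A130014A01Rik had 1.00 TPM against 0.25 and 0.30 TPM, a difference of 1.92, and A930037H05Rik, opposite the ubiquitin ligase gene Rnf213, had 1.24 TPM against 0.57 and 0.27 TPM, a difference of 1.80. These were the 5 members with the largest SD of log2 CPM, between 1.13 and 1.59. Lower in the list, Mypopos had 1.17 TPM in replicate 3 against 0.99 and 0.62 TPM (difference 1.48). Gt(ROSA)26Sor, the noncoding RNA of the Rosa26 locus used for ubiquitous transgene expression, had 2.19 TPM against 1.12 and 0.98 TPM (difference 1.22). The remaining 5, Gm26740, 2900089D17Rik, 1810032O08Rik, 3110056K07Rik and 2900093K20Rik, differed by 1.82, 1.42, 1.33, 1.11 and 1.08.

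The coding partners showed no difference of that size in replicate 3. Of the 12 members, 9 had a partner past the filter, and those partners differed by −0.11 to 0.30, with 0 at 1 log2 unit or more. Of the 11215 protein-coding genes past the filter only 0.883% reached it, so 0 of 9 is near the share of coding genes at large. Cd274 differed by −0.06, Rnf213 by −0.01 and Zdhhc7 by −0.03. The start of Zdhhc7 lay 100 bases from that of its member. The starts of Cd274 and Rnf213 lay 17016 and 98198 bases from those of theirs. The SD of log2 CPM of these 9 partners was 0.01 to 0.22, the highest being that of Rnf213, with 83.46 TPM in replicate 3 against 123.21 and 73.31 TPM. By structure, the 12 were 0 of 15 nested, 6 of 56 partly overlapping and 3 of 9 intronic members past the filter. The rest were 2 of 7 head-to-head members and 1 of 4 with no partner. The summed level of the 5 nuclear RNAs listed was 1101 TPM in replicate 3 against 242.8 and 223.4 TPM, most of it Malat1, and 2 of the 5 reached a TPM of 1. In log2 CPM, Malat1, Neat1, Kcnq1ot1 and Airn were higher in replicate 3 by 2.66, 2.36, 2.45 and 0.78, and Meg3 was at 0. That of 4 cytosol-exported noncoding RNAs was 43.5 TPM against 59.05 and 48.05 TPM, and in log2 CPM Gas5, Zfas1, Snhg1 and Snhg12 differed by −0.02, −0.09, 0.55 and −0.03. The part of nuclear RNA in the difference of these 12 members was not tested.

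**Figure D4:**
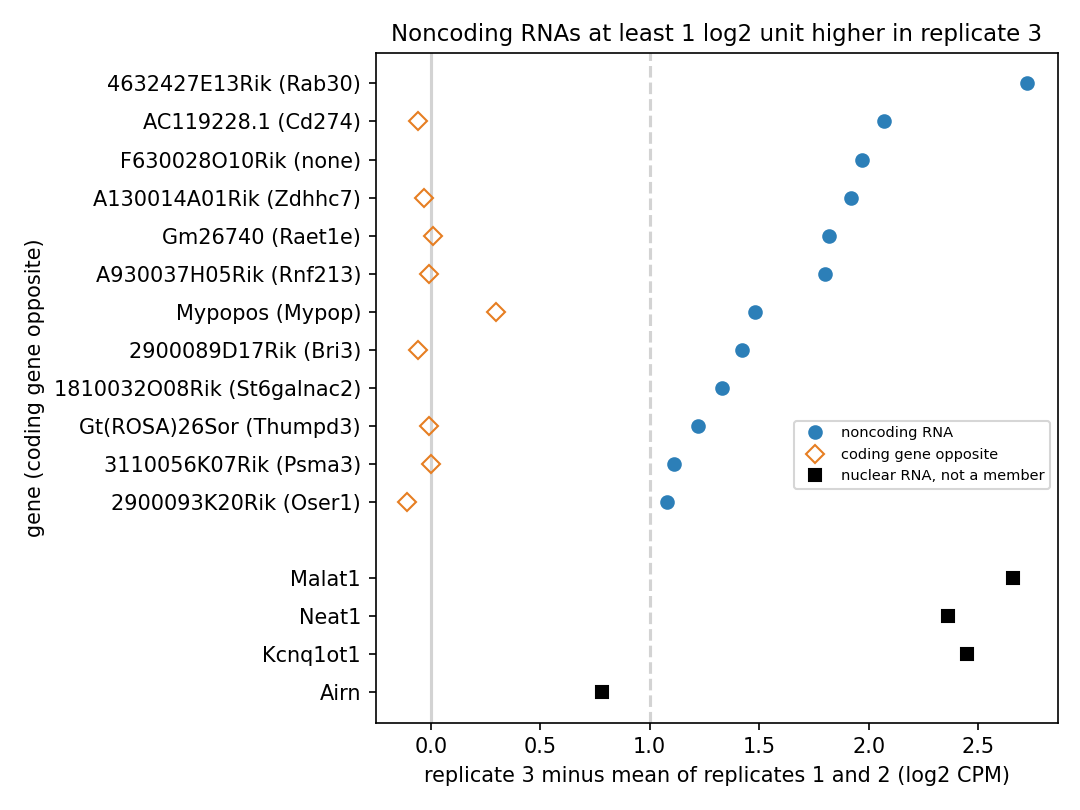
Replicate 3 minus the mean of replicates 1 and 2 in log2 CPM for the 12 members at or above 1 (filled circles), for the 9 partners past the filter (open diamonds) and for the 4 listed nuclear RNAs with a value (squares); the dashed line marks 1. The members lie between 1.08 and 2.72, their partners between −0.11 and 0.30.

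Of the 97 members, 55 have several annotated transcripts. The leading transcript held a median of 74.1% of the gene's TPM in the RSEM-format tables, over 90% in 17 members and under 50% in 13. It was the same in all 3 libraries for 39 members and the same in the kallisto-format tables for 42. In BE692007, opposite the MS4A family gene Ms4a6c, the leading transcript is annotated as a retained intron and took 98.8%, 96.6% and 82.4%; the gene had 4.88, 3.23 and 5.86 TPM. Hotairm1 had a leading share of 40.0%, 92.6% and 89.7%, on very few reads.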

How the data were processed

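The labels put 3 libraries in 1 group of biological replicates. Per the file headers and the notes deposited with each library, reads were quantified on mm10 with GENCODE M21 in RSEM-format gene and transcript tables and in a kallisto-format transcript table; versions of these tools, and whether strand was used, are not given in the sources used here. Expected counts, as deposited, estimate the reads of each gene and can be fractional. TPM as deposited scales these by effective length and library, and FPKM as deposited scales them by length and fragments. The share of each isoform was deposited by the authors as a percent, and was recomputed here from TPM. RSEM-format TPM chose the members.

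The members, the structures and the gene lists were chosen with earlier results of these data known. Gene names, classes and positions came from GENCODE M21. The partner of a member is the coding gene with the longest overlap on the other strand, otherwise one whose start lies within 1000 bases, head to head. The spread between libraries is the SD of TMM log2 CPM (edgeR 4.0.16, R 4.3.3, prior count 2). It used expected counts rounded to whole numbers, past edgeR's filter on low counts. TMM factors were 1.04, 0.992 and 0.971 in replicates 1, 2 and 3, and pairs of libraries differed by more than sampling noise (chi-square per degree of freedom 44.3 to 70.6). Member to partner ratios used a pseudocount of 0.1 TPM. Promoter windows came from RefSeq (GRCm38.p6), where 40 of 97 members matched; motifs were searched on both strands.

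The members described by name are the 15 with the highest mean TPM, the 5 most and 5 least variable with a mean of at least 20 counts, those whose symbol names a gene, the 3 nearest the threshold on each side, the 5 with the largest gap between the tables in mean log2(TPM + 0.1), those with a partner on the macrophage list, and their partners. Others named in the text were chosen after their values were seen: the remaining nested and head-to-head members, the members higher in replicate 3, and the extremes of a group. Some partners of these members are not reported here. Alternatives changed the threshold, the table, the pseudocount, the scaling, the filter and the libraries used. Depth and counts cover counting error only.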

Additional observations from a re-analysis of the deposited data

How the results depend on the processing

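The number of members followed the threshold: 188 genes at 0.5 TPM, 51 at 2 TPM, 20 at 5 TPM, 58 when all 3 libraries had to reach 1 TPM, 59 with kallisto-format TPM and 180 with FPKM. Of those 59, 42 were members (71.2%), or 43.3% of the 97. With posterior mean TPM the number was 133, and leaving out 1 replicate gave 84 to 93. The median level of 1.57 TPM was 0.732 with kallisto-format TPM, 1.82 with posterior mean TPM, 3.1 over members in all 3 libraries and 1.39 without nested members, an alternative added after seeing the data. The median spread of 0.262 log2 CPM was 0.285 with no filter on low counts, 0.233 without nested members (also added later) and 0.18 to 0.217 leaving out 1 replicate, where an SD of 2 values tends to be smaller. The share of detected partners was 67.7% at a partner level of 5 TPM and 77.4% with kallisto-format TPM. The median log2 ratio of member to partner was −2.51 with a pseudocount of 0.01, −1.86 with a pseudocount of 1, −2.51 with kallisto-format TPM and −2.5 to −2.26 leaving out 1 replicate. Of the 38 named members, 29 moved by more than their SD with kallisto-format TPM (35 were lower). Counts did not fall alike: outside the nested structure, median kallisto-format counts were 122% to 153% of expected counts. Tug1 averaged 5423 expected and 6267 kallisto-format counts, but 17.89 and 8.51 TPM. A lower kallisto-format TPM therefore does not by itself mean that fewer reads were assigned to a member. In most nested members counts fell as well, as in Gm26716 with means of 1126 expected and 2.62 kallisto-format counts. In Gm15655 they rose, from 975.5 to 1171. Without replicate 3, 6 mean levels were lower by over 1.5 times: 4632427E13Rik at 0.22, A130014A01Rik at 0.275, AC119228.1 at 0.325, A930037H05Rik at 0.42, Rab26os at 0.49 and F630028O10Rik at 1.985 TPM. Without replicate 1 or 2, 0 moved that far. Except for what the stated construction of an alternative shows, the cause was not tested. No paired analysis was possible because the libraries form 1 group. Depth limits the 6 members that did not pass the filter on low counts.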

Other observations

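In the kallisto-format tables, 17 class genes that are not members reached a TPM of 1. Gm13091, over introns only opposite the corepressor gene Rere, had 99, 129 and 271 kallisto-format counts in replicates 1, 2 and 3. It had 4, 5 and 10 expected counts in the RSEM-format tables. Gm20400, over introns only opposite the organic anion transporter gene Slco1a6, had 97.9, 137.6 and 177.9 kallisto-format counts and was listed at 0 in every RSEM-format table. Gm17201, partly over exons of the phosphatase regulator gene Ankrd52, had 108.1, 213 and 304.5 against 3.27, 10.3 and 11.3. These 3 were chosen after their values were seen, and what sets the tables apart was not tested.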
